A study of Mus musculus with 2 samples.

Results

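Collagen genes were followed across the cell types of the mouse ventral parafacial region, a strip of the ventral brainstem that holds neurons of the respiratory control network. The members are the genes whose symbol reads Col, a number, a and a number and which had at least 10 UMIs (unique molecular identifiers, 1 for each captured transcript) over both libraries together. Of 44 such symbols among 28692 genes in the gene list, 41 met this rule. Col28a1 with 12 UMIs and Col6a4 with 17 UMIs lay just inside the limit, and Col8a2 and Col17a1 with 6 UMIs each and Col10a1 with 3 UMIs lay outside it. The 2 libraries came from wild type C57BL6/J mice 10 days old, with tissue of 8 mice (4 male and 4 female) pooled in each. The first (batch 1) was from untreated mice, and the second (batch 2) was from mice given 0.2 mg of 4OH-tamoxifen daily for 3 days. Since the tissue was pooled and there was 1 library for each condition, treatment, batch and mice cannot be told apart, and no test between the conditions was possible.

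Collagens are secreted or membrane proteins in which 3 chains wind into a triple helix. Fibrillar collagens such as types I and III form the tensile fibres of connective tissue and, in the brain, lie mainly in the meninges and around larger vessels. Type IV collagens build the sheet-like network of the basement membrane that surrounds capillaries, and other families decorate fibrils (types IX, XII and XVI), form beaded filaments (type VI), cross the cell membrane (types XIII, XXIII and XXV) or carry a heparan or chondroitin sulphate chain beside the vessel wall (types XV and XVIII). In the brain, fibroblasts, mural cells and endothelial cells are their best known sources.

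The untreated library held 3767 barcodes, of which 3339 were kept, and the 4OH-tamoxifen library 10241, of which 8558 were kept. The 2 libraries had 40 barcodes in common. Cells were placed in 10 classes, each named after the gene that defined it, when they had at least 2 UMIs of that gene and 0 of the others, except that Pdgfra was allowed in the Dcn class. These were Dcn (fibroblast-like, 23 cells untreated and 14 after 4OH-tamoxifen), Kcnj8 (pericyte-like, 24 and 17), Flt1 (endothelial-like, 92 and 124), Aqp4 (astrocyte-like, 569 and 1287), Pdgfra (oligodendrocyte precursor-like, 127 and 359), Mog (oligodendrocyte-like, 225 and 751), C1qa (microglia-like, 199 and 334), Chat (cholinergic neuron-like, 3 and 10), Nmb (retrotrapezoid neuron-like, 14 and 36) and Slc32a1 (inhibitory neuron-like, 28 and 123). Levels are given as CPM, the UMIs of a gene scaled to a total of 1000000 UMIs for the class, with the untreated library named first and the treated one after it. In each class the summed level of the remaining markers of its name was the highest of the 10 classes in both libraries, and none of those markers was at 0. The Dcn class also had 6353 and 3406 CPM of the 6 pericyte markers, against 19199 and 14702 in the Kcnj8 class, and the part of this in the values of the Dcn class was not tested. The 3 untreated Chat cells gave 18271 UMIs in all, so levels of that class are the least certain. Since UMIs count 3′ ends, no division by gene length was made. All intervals are 95% exact Poisson or binomial intervals, which cover counting error only.

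The sequences below bear on members that stood together in the values. They are RefSeq promoter windows of GRCm38.p6, from 250 bases before to 50 bases after the start that RefSeq gives the gene, written 5′ to 3′ on the strand of the gene, and 32 of the 41 members had one. Col4a1 and Col4a2, the chains of the common type IV molecule, lie back to back on chromosome 8 and overlap at their starts in the GENCODE annotation, from which positions of neighbouring genes are taken. For Col1a2 and Col11a2 the GENCODE gene starts (4504814 on chromosome 6 and 34039437 on chromosome 17) lie outside the RefSeq windows. The windows of Col4a1 and Col4a2, chr8:11312777-11313076 on the minus strand and chr8:11312555-11312854 on the plus strand in that order, share 78 bases (chr8:11312777-11312854), shown in capitals on both strands.
Col4a1: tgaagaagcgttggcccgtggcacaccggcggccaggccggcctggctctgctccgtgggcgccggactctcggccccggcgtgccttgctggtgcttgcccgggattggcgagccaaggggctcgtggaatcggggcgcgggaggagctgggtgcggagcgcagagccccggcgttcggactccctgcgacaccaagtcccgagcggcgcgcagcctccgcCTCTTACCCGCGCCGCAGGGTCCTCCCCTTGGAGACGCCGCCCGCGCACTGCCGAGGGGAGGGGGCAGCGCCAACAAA
Col4a2: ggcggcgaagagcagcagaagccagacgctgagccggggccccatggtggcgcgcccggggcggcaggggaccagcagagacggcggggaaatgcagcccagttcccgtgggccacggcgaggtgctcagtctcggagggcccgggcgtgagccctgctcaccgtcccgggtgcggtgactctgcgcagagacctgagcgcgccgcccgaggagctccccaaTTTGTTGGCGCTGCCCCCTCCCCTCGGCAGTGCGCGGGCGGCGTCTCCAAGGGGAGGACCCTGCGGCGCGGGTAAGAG
The windows of Col1a2 (chr6:4505368-4505667) and Col3a1 (chr1:45311288-45311587), both on the plus strand, belong to fibrillar collagens of the Dcn class, and that of Col11a2 (chr17:34038888-34039187, plus strand) belongs to a fibrillar chain of the Mog class. Capitals mark, on either strand, the CCAAT box (its letters), the GC box with the letters GGGCGG, and the TATA box with the letters TATAAA.
Col1a2: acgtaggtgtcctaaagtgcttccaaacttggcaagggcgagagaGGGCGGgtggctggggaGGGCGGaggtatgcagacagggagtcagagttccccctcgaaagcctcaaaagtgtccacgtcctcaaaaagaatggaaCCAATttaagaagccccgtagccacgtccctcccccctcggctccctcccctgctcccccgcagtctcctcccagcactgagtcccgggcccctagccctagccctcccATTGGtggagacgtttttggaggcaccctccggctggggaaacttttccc
Col3a1: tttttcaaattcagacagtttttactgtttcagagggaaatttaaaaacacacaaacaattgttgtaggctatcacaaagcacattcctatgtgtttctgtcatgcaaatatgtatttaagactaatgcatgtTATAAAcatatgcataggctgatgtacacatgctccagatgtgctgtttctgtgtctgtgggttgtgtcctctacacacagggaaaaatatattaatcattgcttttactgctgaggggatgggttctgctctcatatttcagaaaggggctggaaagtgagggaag
Col11a2: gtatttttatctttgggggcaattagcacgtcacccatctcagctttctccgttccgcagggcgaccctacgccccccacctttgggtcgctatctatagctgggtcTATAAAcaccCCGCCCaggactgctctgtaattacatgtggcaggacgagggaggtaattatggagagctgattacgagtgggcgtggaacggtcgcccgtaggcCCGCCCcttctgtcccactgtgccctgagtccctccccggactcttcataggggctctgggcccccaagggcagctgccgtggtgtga
Col1a2 had CCAAT 2 times and GGGCGG 2 times, Col3a1 had TATAAA 1 time, and Col11a2 had TATAAA 1 time and GGGCGG 2 times. GGGCGG was in 21 of the 32 member windows (65.6%) and in 35.7% of all 32851 windows. CCAAT was in 11 member windows (34.4%) against 37.4% of all, and TATAAA in 3 (9.38%) against 13.6%. A match is a description of the letters in this window.

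**Figure D1:**
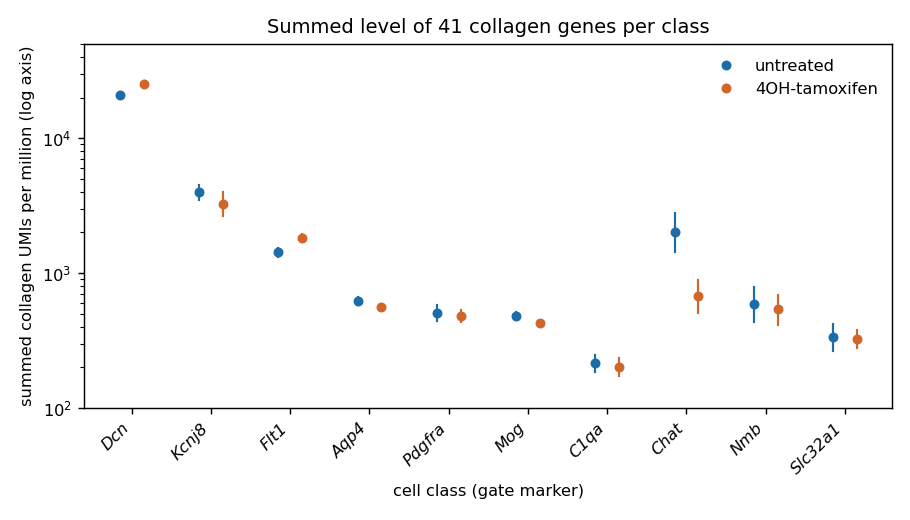
Summed level of the 41 collagen genes in CPM (log axis) in each class of the untreated and the 4OH-tamoxifen library, with 95% Poisson intervals. The Dcn class stood highest, at 21097 and 25045, and the C1qa class lowest, at 215 and 201.

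Summed over the 41 members, collagen transcripts were most abundant in the Dcn class, at 21097 CPM (20179 to 22044) and 25045 CPM (23483 to 26684). The Kcnj8 class followed at 3974 and 3263 CPM and the Flt1 class at 1427 and 1825 CPM. The intervals of these 3 classes did not overlap in either library. Aqp4 cells stood at 620.4 and 563 CPM, Pdgfra cells at 509.6 and 479 CPM, Mog cells at 479.6 and 425 CPM, Nmb cells at 593 and 537 CPM and Slc32a1 cells at 336 and 324 CPM. The C1qa class was lowest at 215 (184 to 249) and 201 (172 to 235) CPM and was used as a background level. That level was not shown to be free RNA alone, since Col15a1 and Col27a1 were called higher in C1qa cells. The interval of the Nmb class (434 to 791 and 413 to 687 CPM) held the levels of the Aqp4 and Pdgfra classes in both libraries, and those of the Pdgfra and Mog classes overlapped in both, so the order of these neighbours was not resolved. The Chat class gave 2025 CPM (1426 to 2791) from 3 cells and 678 CPM (503 to 894) from 10 cells.

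The Dcn cells made up 1.76% and 0.458% of the cells in classes, and they held 36.9% and 15.3% of the collagen UMIs of those cells. Cells in no class are outside these shares and held 11581 and 17034 collagen UMIs, against 5393 and 6252 in the 10 classes together. Of the latter, Mog cells held 18.0% and 32.0% and Aqp4 cells 19.0% and 25.0%, at far lower levels per cell. After each cell had been thinned to 2000 UMIs, which left out 3 of the 14 4OH-tamoxifen Dcn cells and none of the 23 untreated, a Dcn cell had UMIs of a median of 11 different collagen genes in both libraries, and at their own depth the medians were 14 and 12. Kcnj8 cells had a thinned median of 4 (18 cells) and 2 (3 cells) genes. Flt1 cells had 2 and 2, Chat cells 4 (3 cells) and 1 (10 cells), and Aqp4, Pdgfra and Mog cells 1 and 1. Nmb cells had 0 and 1, and Slc32a1 and C1qa cells 0 and 0. A UMI of at least 1 member was present in 100% of thinned Dcn and Kcnj8 cells in both libraries, in 94.0% and 91.7% of Flt1 cells, in 100% and 80% of Chat cells, in 54.0% and 56.2% of Mog cells and in 32.6% and 24.2% of C1qa cells. The shares were 59.8% and 60.5% in Aqp4, 67.5% and 56.7% in Pdgfra and 42.9% and 65.5% in Nmb cells. In Slc32a1 cells they were 32.1% and 48.8%, so the untreated share was not above that of C1qa cells.

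**Figure D2:**
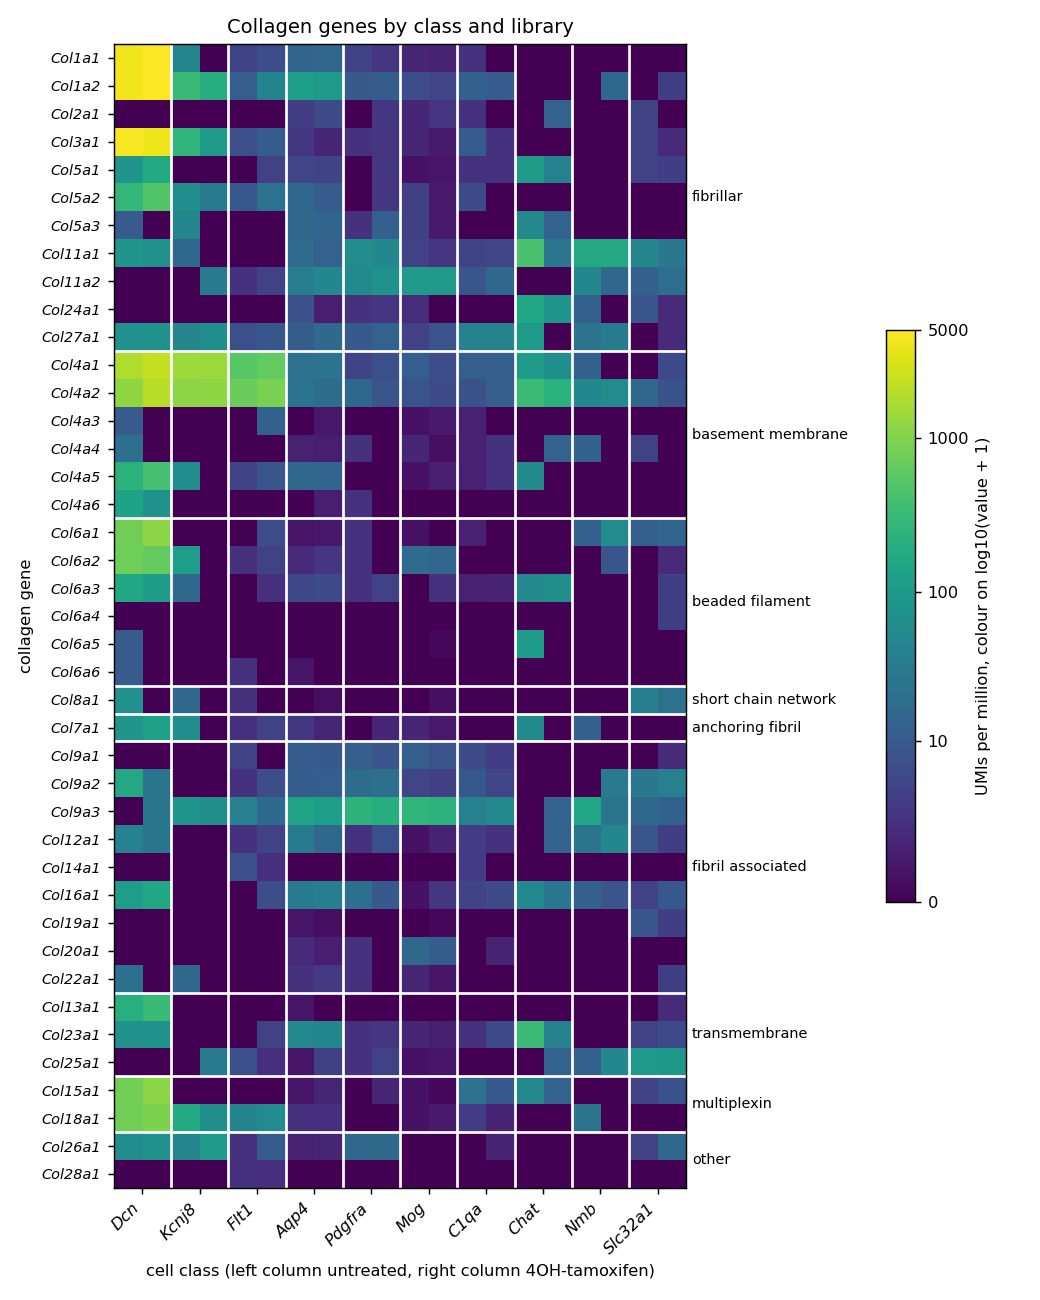
Level of each of the 41 collagen genes (rows, by family) in each class, untreated in the left and 4OH-tamoxifen in the right column of a pair, coloured on log10(CPM + 1). The Dcn columns carry most of the fibrillar, beaded filament and multiplexin genes, the first 3 classes share Col4a1 and Col4a2, and Col9a3 runs through the Aqp4, Pdgfra and Mog columns.

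Of the 41 members, 29 passed the filter on low counts and were tested with 11032 genes in all by edgeR's quasi-likelihood test on the sums of each class and library. A gene was called higher in a class when it was above the mean of the other 9 classes at an adjusted p under 0.05 and by at least 2-fold. Lower calls used the same rule. That mean was taken on the log scale, so a gene called higher can lie far below its CPM in another class. Col15a1, for example, was called higher in C1qa cells but had a far higher CPM in Dcn cells. The 12 members without a test were Col2a1, Col4a3, Col4a4, Col6a4, Col6a5, Col6a6, Col9a1, Col14a1, Col19a1, Col20a1, Col22a1 and Col28a1. Many members were at 0 UMIs in at least 1 class, so a fitted difference from the other classes depends on the prior count, and levels are given in its place. A member could also pass the filter through the class in which it was high, and such a member had to differ there, so the counts of members called are a description of the tested members and not of all 41.

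In the Dcn class the chains of types I and III, which build connective tissue fibres, reached the highest levels of any member in any class. Col1a1, the α1 chain of type I, had 4179 and 5318 CPM, and Col1a2, its α2 chain, had 4158 and 5266 CPM. Col3a1, the single chain of type III, had 4635 and 4087 CPM. All 23 and all 14 Dcn cells had UMIs of all 3 genes. The next class for Col1a2 and Col3a1 was Kcnj8 (319 and 202 CPM, and 271 and 101 CPM). Col1a1 had 47.9 and 0 CPM there. The ratio of Col1a1 to Col1a2 UMIs in the Dcn class was 1.01 in both libraries (0.872 to 1.16 and 0.827 to 1.23).

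In total 23 members were called higher in the Dcn class, where 6.30% of all genes tested were. By family, these were 7 fibrillar genes (Col1a1, Col1a2, Col3a1, Col5a1, Col5a2, Col11a1 and Col27a1), all 4 tested type IV genes (Col4a1, Col4a2, Col4a5 and Col4a6) and all 3 tested type VI genes. The other 9 were Col7a1, Col8a1, Col9a2, Col13a1, Col15a1, Col16a1, Col18a1, Col23a1 and Col26a1, of which Col8a1 (7 and 0 UMIs) and Col9a2 (16 and 1 UMIs) came almost wholly from the untreated library. Col15a1 and Col18a1, the multiplexins of vessel walls, had 806 and 1127 CPM and 785 and 917 CPM. The beaded filament chains Col6a1 and Col6a2 had 785 and 1127 CPM and 753 and 655 CPM, and Col6a3 had 159 and 105 CPM. Col13a1, a transmembrane collagen, had 212 and 314 CPM in Dcn cells from 32 UMIs, and at most 1 UMI in any other class of either library, so its call was close to fixed by the filter. One member, Col9a3, was called lower (0 and 26.2 CPM, adjusted p = 0.039), and 2.32% of all genes were lower. That call was lost in 6 of 12 alternative settings.

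Between the Dcn class and the Kcnj8 class, which lie side by side on vessels, 15 members were called higher in Dcn cells (background 1.58%) and 0 lower (0.988%). At an unadjusted p under 0.05, edgeR gave 1 member lower in Dcn cells (Col9a3), and DESeq2 called 0. The higher count was 9 at 1200 genes a cell and 9 after thinning, and the lower count was 1 when 1 UMI of the marker sufficed. Fitted log2 differences were 7.31 ± 0.44 for Col1a1 with 3 UMIs in Kcnj8 cells and 4.59 ± 0.32 for Col3a1. They were 4.20 ± 0.31 for Col1a2 and 2.74 ± 0.43 for Col18a1. The adjusted p by edgeR were 5.3e-58, 1.5e-42, 2.3e-39 and 4.7e-08 in this order. Here and below, ± gives the standard error implied by the difference and its edgeR p-value. It is not a separate estimate and does not show the counting error of few UMIs. Col15a1 and Col6a1 had no UMI in Kcnj8 cells of either library, whose limits from a count of 0 (3 UMIs) were 47.9 and 101 CPM. Col4a1 and Col4a2 were not among the 15 (log2 differences of 0.67 ± 0.25 and 0.56 ± 0.26, adjusted p = 0.18 and 0.41).

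Col4a1 and Col4a2 were, with Col5a2 and Col18a1, the members called higher in the Dcn, Kcnj8 and Flt1 classes alike. Col4a1 had 1793 and 2279 CPM in the Dcn class, 1420.3 and 1379 CPM in the Kcnj8 class and 546 and 656 CPM in the Flt1 class. Col4a2 had 1230.4 and 2017 CPM, 1149 and 1178 CPM, and 711 and 908 CPM in the same order. Their adjusted p was 4.7e-81 (Col4a1) and 4.0e-55 (Col4a2) in the Kcnj8 class and, in the same order, in the Flt1 class 1.1e-112 and 2.6e-139. Col4a1 UMIs were present in 22 of 24 and 17 of 17 Kcnj8 cells and in 72 of 92 and 91 of 124 Flt1 cells. In C1qa cells they were in 6 of 199 and 9 of 334, at median depths of 4006 and 2253 UMIs against 3790 and 2899 in Flt1 cells. The ratio of Col4a1 to Col4a2 UMIs was 1.46 (1.14 to 1.86) and 1.13 (0.822 to 1.56) in Dcn cells and 1.24 (0.896 to 1.71) and 1.17 (0.728 to 1.89) in Kcnj8 cells, but 0.767 (0.644 to 0.914) and 0.722 (0.621 to 0.840) in Flt1 cells. The Flt1 intervals lay below 1 in both libraries, and those of Kcnj8 cells held 1.

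The less common type IV chains, which form the molecules of other basement membranes, were sparse outside the Dcn class. Col4a5 had 233 and 393 CPM and Col4a6, its neighbour 1309 bases away on chromosome X in the opposite orientation, had 138 and 78.6 CPM in Dcn cells. In the Kcnj8 class Col4a5 had 63.8 and 0 CPM (4 UMIs and none), a call that was lost in 4 of 12 alternatives, and Col4a6 had no UMI. Col4a3 and Col4a4 start 72 bases apart on chromosome 1, and neither reached 7 UMIs in any class of a library. Col4a3 had 6 UMIs in 4OH-tamoxifen Flt1 cells and none in the untreated.

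Besides the type IV pair, 8 members were called higher in the Kcnj8 class, 10 in all (background 4.12%, and 5 after thinning and 6 at 10% mitochondrial UMIs). They were Col1a2, Col3a1, Col5a2, Col4a5, Col6a2, Col7a1, Col18a1 and Col26a1, of which Col5a2, Col4a5, Col7a1 and Col26a1 rested on at most 4 UMIs in a library. The UMIs of Col4a5, Col6a2 and Col7a1 in Kcnj8 cells all came from the untreated library. The Col7a1 call was lost in 5 of 12 alternatives. Col18a1, the source of endostatin, had 176 and 67.3 CPM. The same cells had 463 and 505 CPM of the 5 fibroblast markers (Lum, Igf2, Slc6a13, Apod and Igfbp2), with 1 of them at 0. The Dcn class had 14351 and 12156 CPM of these markers. Their part in the type I and III values of Kcnj8 cells was not tested. In the Kcnj8 class 0 members were called lower (background 0.943%), with 0 also at an unadjusted p under 0.05 by edgeR and 0 called by DESeq2. In the Flt1 class 4 members were called higher (background 17.3%), namely Col4a1, Col4a2, Col18a1 (44.9 and 60.8 CPM) and Col5a2 (9.45 and 23.9 CPM), and the last was lost in 4 of 12 alternatives. Flt1 cells had 657 and 434 CPM of the 5 fibroblast markers and 1044 and 1388 CPM of the 6 pericyte markers. The part of these in the Flt1 values was not tested. Col11a1 was called lower in Flt1 cells (background 6.59%), where it had 0 UMIs in either library. Compared directly, Kcnj8 cells were above Flt1 cells in 4 members (background 2.30%), Col1a2, Col3a1, Col6a2 and Col5a3, and below them in 0 (5.52%), with 0 also at an unadjusted p under 0.05 by edgeR and 0 called by DESeq2. For Col3a1 the log2 difference was 3.98 ± 0.64 (adjusted p = 3.3e-08) and for Col1a2 2.78 ± 0.49 (adjusted p = 9.3e-07). Col5a3 rested on 3 UMIs in 1 library, and the Col6a2 UMIs of Kcnj8 cells were all from the untreated library. The higher count ranged from 2 after thinning or with at least 3 UMIs of the marker to 12 with clusters in place of single markers.

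**Figure D3:**
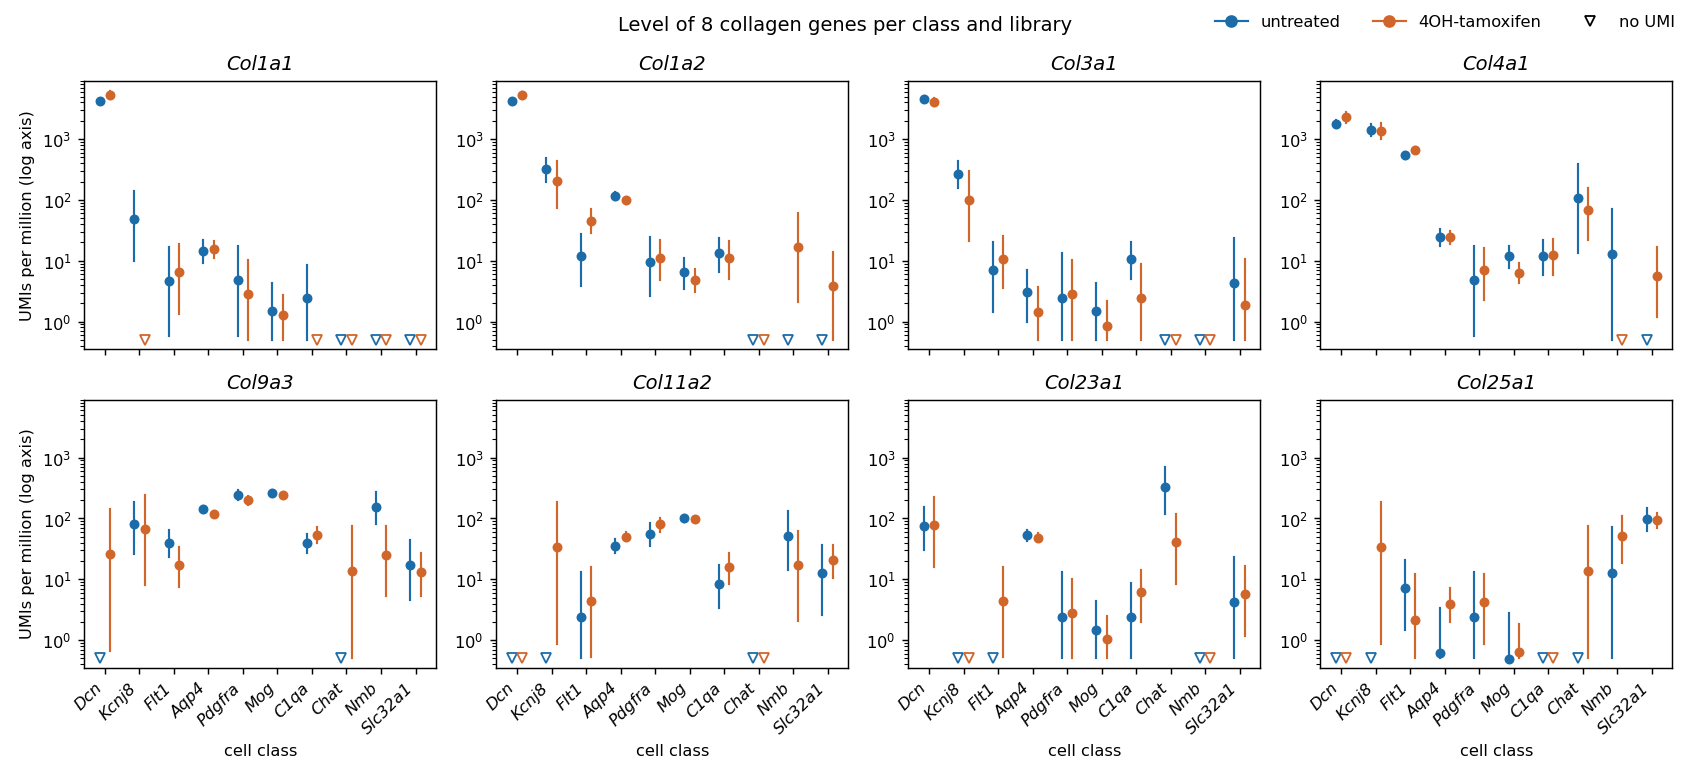
Level of 8 collagen genes (CPM, log axis) in the 10 classes, untreated in blue and 4OH-tamoxifen in orange, with 95% Poisson intervals and open triangles where there was no UMI. Col1a1 and Col3a1 stood out in the Dcn class, Col1a2 also reached about 100 in the Aqp4 class, and Col25a1 was highest in the Slc32a1 class.

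In the Aqp4 class 10 members were called higher (background 17.5%, and 6 after thinning), namely Col1a1, Col1a2, Col4a5, Col5a2, Col5a3, Col9a3, Col11a2, Col12a1, Col16a1 and Col23a1. Col9a3, a chain of the fibril-associated type IX, had 141 and 118 CPM, and Col1a2 had 117 (101 to 134) and 98.4 (87.1 to 111) CPM. Col23a1, a transmembrane collagen, had 53.2 and 48.1 CPM, Col11a2, a minor fibrillar chain, 35.1 and 50.3 CPM, and Col16a1, a fibril-associated chain, 33.3 and 37.4 CPM. The 5 oligodendrocyte markers summed to 12791 and 15291 CPM in Aqp4, 78800 and 70314 in Mog and 10144 and 15835 in C1qa cells. Their part in the Col9a3 and Col11a2 values of Aqp4 cells was not tested. Col4a2 (24.8 and 19.0 CPM) was called lower (background 1.59%). Of all members, Col9a1 alone had its highest mean level in the Aqp4 class (10.9 and 10.1 CPM, not tested). The 12.02 and 8.39 CPM of Pdgfra cells and the 12.3 and 7.85 CPM of Mog cells lay within its intervals, and in the untreated library the Mog value was the highest, so this order was not resolved.

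Col1a2 of Aqp4 cells stood beside few UMIs of Col1a1 and Col3a1. Its UMIs were in 153 of 569 cells (26.9%, 23.3 to 30.7) and 229 of 1287 (17.8%, 15.74 to 19.99), against 4.52% and 2.096% of C1qa cells, at median depths of 2663 and 2008 UMIs in Aqp4 and 4006 and 2253 in C1qa cells. Thinned to 2000 UMIs, the shares were 20.5% and 16.3% of Aqp4 cells and 2.63% and 1.83% of C1qa cells. Col1a1 had 24 and 43 UMIs beside 193 and 274 of Col1a2, a ratio of 0.124 (0.0778 to 0.191) and 0.157 (0.111 to 0.217). Col3a1 had 5 and 4 UMIs, a ratio of 0.0259 (0.00832 to 0.0615) and 0.0146 (0.00395 to 0.0378), against 1.11 (0.970 to 1.28) and 0.776 (0.626 to 0.961) in Dcn cells. Both ratios of Aqp4 cells thus lay far outside the intervals of the Dcn class. The 5 fibroblast markers summed to 1156 and 746 CPM in Aqp4 cells and to 2377 and 1452 CPM in Mog cells, and their part in the result was not tested.

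Within the Aqp4 class, cells with a UMI of Myoc, a secreted protein gene of a subset of astrocytes, were compared with the rest as a description. Col23a1 had 158 and 155 CPM in the 101 and 179 cells with Myoc and 29.0 and 30.2 CPM in the 468 and 1108 without. For Col1a2 the values were 216 and 187 CPM with Myoc and 93.8 and 83.5 CPM without. Col9a3 (155 and 137 against 138 and 115 CPM) and Col16a1 (29.0 and 47.4 against 34.2 and 35.7 CPM) varied less. The cells with Myoc were somewhat deeper, with medians of 2925 and 2120 UMIs against 2597 and 2001.

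In cells of the oligodendrocyte lineage the leading collagens by the mean of both libraries were Col9a3 and Col11a2, of cartilage-type families, although in untreated Pdgfra cells Col11a1 (64.9 CPM) stood above Col11a2 (55.3 CPM). Col9a3 had 267 (245 to 290.4) and 239 (225 to 253) CPM in the Mog class, its highest level, and 243 and 198 CPM in the Pdgfra class. Col11a2 had 101 and 98.5 CPM in Mog cells and 55.3 and 79.7 CPM in Pdgfra cells. Col9a3 was seen in 147 of 225 and 420 of 751 Mog cells, and after thinning in 33.0% and 34.1% of them against 3.16% and 7.31% of C1qa cells. The Col9a3 of C1qa cells (39.6 and 54.0 CPM) was confined to 13 of 199 and 23 of 334 cells, which held 33 and 44 UMIs. The partner chains Col9a1 and Col9a2 were far below Col9a3 in Mog cells, with ratios of UMIs of 0.0462 and 0.0329 for Col9a1 and of 0.0185 and 0.0169 for Col9a2. Col11a1 reached 0.0441 and 0.0259 of Col11a2 there, against 1.17 (0.648 to 2.14) and 0.649 (0.417 to 0.999) in Pdgfra cells.

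In the Mog class 3 members were called higher (background 19.6%, and 5 in 3 of the alternatives), Col9a3, Col11a2 and Col6a2, with adjusted p of 2.4e-54, 7.4e-49 and 4.3e-07. Col6a2 had 18.7 and 15.5 CPM from 38 and 73 UMIs in 18 and 50 cells, while Col6a1, its partner in the type VI molecule and its neighbour on chromosome 10, had 1 UMI and none. Mog cells also had 2377 and 1452 CPM of the 5 fibroblast markers, with 1 of them at 0, the most after the Dcn class. Of the leading Dcn members, Col1a1 had 1.48 and 1.27 CPM and Col3a1 1.48 and 0.849 CPM in Mog cells. The part of fibroblast transcripts in the Col6a2 value was not tested. The ratio of Col6a1 to Col6a2 was 0.0263 (at most 0.156) and 0 (at most 0.0518), against 1.04 and 1.72 in Dcn cells. Col20a1, a fibril-associated chain without a test, had 16.3 and 11.5 CPM in Mog cells from 33 and 54 UMIs, and 3 UMIs or fewer in each other class of a library. Col4a1, Col4a2 and Col27a1 were called lower in Mog cells (background 7.34%), and for Col27a1 the call was lost in 5 of 12 alternatives, of which thinning turned the log2 difference to 0.30.

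The Pdgfra class had 5 members called higher (background 13.4%), Col9a3, Col11a1, Col11a2, Col26a1 and Col5a3. The last rested on 1 and 9 UMIs (adjusted p = 0.042), was lost in 5 of 10 alternatives and turned to -0.32 on the log2 scale with clusters in place of single markers. Col11a1 had 64.9 and 51.7 CPM, Col26a1 16.8 and 18.2 CPM and Col9a2 19.2 and 22.4 CPM. The 5 oligodendrocyte markers summed to 13039 and 18106 CPM in Pdgfra cells, and their part in the Col9a3 and Col11a2 values was not tested. Col4a1 and Col4a2 were called lower (background 2.57%). Set directly against Mog cells, Pdgfra cells were higher in 4 members (background 16.5%) and lower in 2 (13.9%). The higher count was 2 with 1 UMI of the marker and 9 with clusters, and the lower count was 1 in 4 alternatives. Col11a1 was higher by 3.57 ± 0.40 on the log2 scale (adjusted p = 3.9e-18), with Col9a2 (1.74 ± 0.50, adjusted p = 0.0020), Col16a1 (2.15 ± 0.61, adjusted p = 0.0016) and Col26a1, which had no UMI in Mog cells. Col6a2 and Col11a2 were lower, the latter by -1.01 ± 0.20 (adjusted p = 4.0e-06), a size at the 2-fold limit that was lost in 5 of 12 alternatives.

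In the C1qa class 2 members were called higher (background 17.9%). Col27a1, a fibrillar chain, had 43.2 (30.3 to 59.8) and 43.0 (29.9 to 59.8) CPM, with 36 and 35 UMIs spread over 31 and 32 cells (adjusted p = 1.3e-08). Col15a1 had 22.8 (13.7 to 35.6) and 9.83 (4.24 to 19.4) CPM (adjusted p = 4.8e-06). Of its 19 and 8 UMIs, 2 and 0 were in the 20 and 23 cells with a UMI of the border macrophage markers Pf4, Mrc1 or Cd163. Neither had the highest mean level of the class, which was that of Col9a3 (39.6 and 54.0 CPM), and Col11a2 had 8.40 and 15.97 CPM. Col4a1 and Col4a2 were called lower (background 5.71%), the former with 12 and 12.3 CPM from 10 UMIs in each library.

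Among the neuronal classes the levels differed by type, on few cells. In Slc32a1 cells Col25a1, a transmembrane collagen known from neurons, had 97.7 (62.0 to 147) and 93.0 (68.8 to 123) CPM, its highest level of all classes (adjusted p = 1.3e-27). Its UMIs were in 10 of 28 and 33 of 123 cells, after thinning in 14.3% and 17.4%, and in 0 of 199 and 0 of 334 C1qa cells, where a limit of 3 cells allows shares of cells with a UMI of up to 1.51% and 0.898%. Col8a1, a short chain network collagen, had 38.2 and 22.8 CPM, Col11a1 51.0 and 28.5 CPM, and Col9a2 29.7 and 39.8 CPM. In all, 6 members were called higher (background 25.1%), these 4 with Col6a1 and Col26a1, and 4 were called lower (4.72%), namely Col4a1, Col4a2, Col9a3 and Col27a1. The count of members called higher was 1 after thinning, 3 with DESeq2 and 3 at 10% mitochondrial UMIs, and the Col26a1 call held in 3 of 12 alternatives.

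In Nmb cells Col11a1 led with 168 (89.2 to 287) and 170.4 (104 to 263) CPM from 13 and 20 UMIs (adjusted p = 6.3e-13). Of 4 members called higher (background 12%, that is 1324 of 11032 genes), the others were Col6a1 (12.9 and 59.7 CPM), Col12a1 (25.8 and 51.1 CPM) and Col25a1 (12.9 and 51.1 CPM), each on at most 7 UMIs in a library. After thinning, 2 members were called higher. Col4a1 was called lower (background 3.45%). In Chat cells 6 members were called higher (background 10.1%), Col4a2, Col5a1, Col6a3, Col11a1, Col23a1 and Col24a1, a count that was 3 after thinning and 15 with clusters. Col5a1 and Col6a3 had means of 75.1 and 61.3 CPM over both libraries, each on few UMIs. This also bears on the Col6a3 call against Slc32a1 cells below. Col4a2 had 328 (120.5 to 715) and 231 (134 to 369) CPM from 6 and 17 UMIs, with a ratio of Col4a1 to Col4a2 of 0.294 (0.0848 to 0.831) in the 4OH-tamoxifen library. Col1a2, with no UMI in Chat cells, was called lower (background 5.99%), which was lost in 5 of 11 alternatives. Col24a1, a minor fibrillar chain, had 164 (33.9 to 480) and 81.4 (29.9 to 177) CPM on 3 and 6 UMIs, and had no UMI in Dcn, Kcnj8, Flt1 and C1qa cells. Its highest CPM were those of Chat cells, so the filter on low counts bears on its call there. Col11a1 (438 and 27.1 CPM) and Col23a1 (328 and 40.7 CPM) differed between the libraries on 8 against 2 and 6 against 3 UMIs.

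Chat cells were above Slc32a1 cells in 5 members (background 1.73%), Col4a1, Col4a2, Col6a3, Col23a1 and Col24a1, and below them in Col25a1 (background 5.68%). The higher count ranged from 1 after thinning to 12 with clusters, and the Col25a1 call was lost after thinning, with library sizes in place of TMM and with DESeq2. For Col4a2 the log2 difference was 4.08 ± 0.62 (adjusted p = 8.0e-09), and it was called in all 11 alternatives. Vascular markers bear on the type IV genes here: the 6 pericyte markers summed to 164 and 13.6 CPM in Chat cells and the 6 endothelial markers to 164 and 203 CPM. In Slc32a1 cells the sums were 25.5 and 55.02 CPM and 76.5 and 49.3 CPM, so the pericyte markers were higher in Chat cells of the untreated library and lower in those of the 4OH-tamoxifen library. The endothelial markers were higher in Chat cells of both libraries. The part of these markers in the result was not tested.

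**Figure D4:**
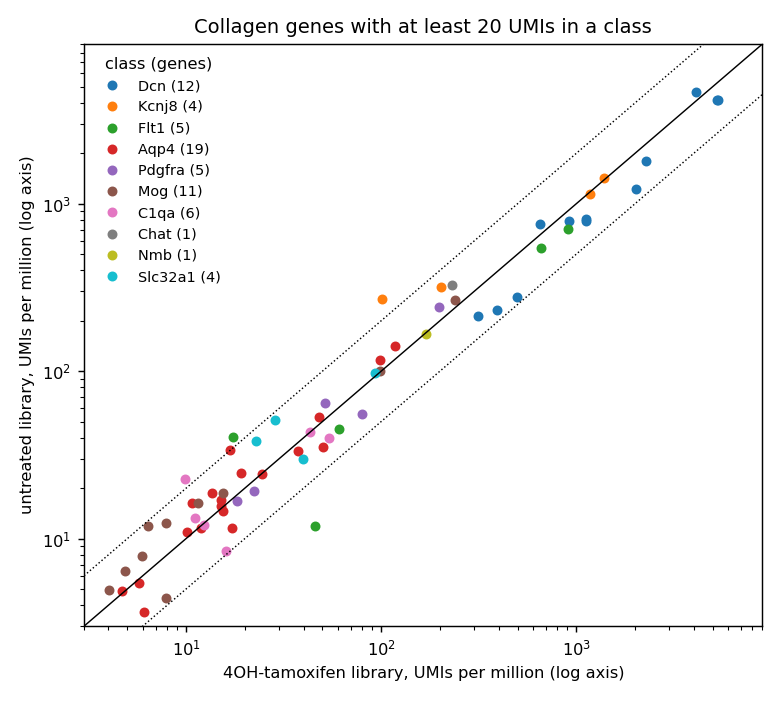
Level of each collagen gene with at least 20 UMIs in a class, 4OH-tamoxifen library on the x axis and untreated library on the y axis (CPM, both log axes), with the line of equality and dotted lines at 2-fold. Of 68 points, 5 lie outside the dotted lines.

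The 2 libraries were compared by size only. The summed level of the untreated over the 4OH-tamoxifen library was 0.842 (0.779 to 0.911) in Dcn, 0.782 (0.703 to 0.869) in Flt1, 1.10 (1.02 to 1.19) in Aqp4 and 1.13 (1.04 to 1.22) in Mog cells. In Kcnj8 (1.22, 0.959 to 1.56), Pdgfra, C1qa, Nmb and Slc32a1 cells the interval held 1, and in Chat cells the ratio was 2.99 (1.90 to 4.66). The Dcn ratio turned to 1.42 when 1 UMI of the marker sufficed and to 1.38 when 1 UMI of other markers was allowed, the Aqp4 ratio to 0.969 at 1200 genes a cell, and the Mog ratio to 0.979 with clusters in place of single markers. The Kcnj8 ratio was 4.97 at 1200 genes a cell and 1.79 after thinning, and the Nmb ratio (1.10, 0.738 to 1.64) was 0.626 with up to 1 UMI of other markers and 0.735 with at least 3 UMIs of the marker. These directions and sizes are therefore not settled.

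Among members with at least 20 UMIs in a class, none of 12 in Dcn cells differed by 2-fold, where 10.7% of all genes at that depth were higher without and 3.38% with the treatment. With up to 1 UMI of other markers, with clusters or at a limit of 1.5-fold, 3 members in Dcn cells were past it. The 5 values past 2-fold were Col3a1 in Kcnj8 cells (ratio 2.69, 0.777 to 14.3, with 9.76% of all genes higher in the untreated library), Col9a3 in Flt1 cells (2.31, 0.945 to 6.19, 3.07%), Col1a2 in Flt1 cells (0.259, 0.0763 to 0.706, with 4.14% of all genes higher in the 4OH-tamoxifen library), Col12a1 in Aqp4 cells (2.01, 1.34 to 3.02, 1.93%) and Col15a1 in C1qa cells (2.32, 0.970 to 6.13, 2.79%). Counting error alone thus held 1 for 3 of the 5. In the other direction, 3.25% of all genes in Kcnj8, 3.78% in Aqp4 and 4.63% in C1qa cells were higher after 4OH-tamoxifen. Pdgfra, Mog, Chat, Nmb and Slc32a1 cells had no member past 2-fold, where 4.10%, 1.62%, 7.24%, 5.53% and 2.21% of all genes were higher in the untreated library and 3.66%, 2.32%, 31.0%, 6.63% and 5.89% after 4OH-tamoxifen. That count of 0 did not hold in all alternatives. With clusters it was 4 in Pdgfra, 2 in Mog, 9 in Chat and 6 in Slc32a1 cells, and with up to 1 UMI of other markers it was 3 in Nmb cells.

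Of the collagen genes' own machinery, the list held 29 genes for folding and crosslinking (23 tested), 15 basement membrane partners (12 tested), 9 receptors (6 tested) and 10 genes of degradation (8 tested). In the Dcn class 11, 10, 1 and 6 of these were called higher, where 6.30% of all genes were. Serpinh1, the collagen chaperone HSP47, had 1008 and 917 CPM in Dcn, 1037 and 639 CPM in Kcnj8, 624 and 411 CPM in Flt1 and 195 and 119 CPM in Aqp4 cells, all 4 called higher, and 20.7 and 12.1 CPM in Mog cells. Pcolce, the enhancer of procollagen cleavage, had 944 and 838 CPM in Dcn cells and 112 and 168 CPM in Kcnj8 cells. Of the basement membrane partners, 9 were called higher in Kcnj8 (background 4.12%), 10 in Flt1 (17.3%), 2 in Aqp4 (Lama2 and Lamb2, 17.5%) and 1 in C1qa cells (Nid2, 17.9%). Nid1, which links laminin to type IV collagen, had 605 and 786, 750.1 and 606, and 236 and 232 CPM in Dcn, Kcnj8 and Flt1 cells. Lama1 was at 159 and 236 CPM in Dcn cells, 11.8 and 10.9 CPM in Flt1 cells and 0 in Kcnj8 cells. Among receptors, Ddr1, a collagen-binding kinase, was highest in Mog cells (267 and 264 CPM) and called higher there (background 19.6%) and in Aqp4 (17.5%) and Pdgfra cells (13.4%). Itga1, the α1 integrin chain, was highest in Kcnj8 cells (271 and 303 CPM).

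By the highest mean level over both libraries, 23 of the 41 members peaked in the Dcn class, 16 of them in both libraries and 12 on at least 20 UMIs. A further 6 peaked in Chat cells, 1 in both libraries and none on 20 UMIs. Mog cells held the peak of Col9a3, Col11a2 and Col20a1 in both libraries. Slc32a1 cells held that of Col25a1 and Col19a1 in both and of Col6a4 by the mean, and Flt1 cells that of Col14a1 and Col28a1 in both and of Col4a3 by the mean. Of these 9, only Col9a3, Col11a2, Col20a1 and Col25a1 had at least 20 UMIs there. Kcnj8 (Col26a1), Aqp4 (Col9a1) and Nmb cells (1 member) each held 1 peak, and Pdgfra and C1qa cells none. The share of all genes that peaked in each class was not taken, and a class with few UMIs can hold a peak on very few counts. These counts therefore describe the order of levels and are not a result about collagen genes.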

How the data were processed

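Single cells of the ventral parafacial region were captured with 10x Genomics chemistry in 2 libraries. The deposited values are UMI counts per gene and barcode, which the authors made with bcl2fastq 2.18.0.12 and Cell Ranger 2.2.0 on mm10, per the submitters' processing notes and the study's methods. The counts are not normalized. Cells were kept with at least 800 genes, at most 50 hemoglobin UMIs and at most 20% mitochondrial UMIs, and Scrublet doublets (6 and 544) were removed. This left 3339 cells of 3767 and 8558 of 10241, with median depths of 3455 and 2316 UMIs. Classes required at least 2 UMIs of 1 marker and 0 of the others (Pdgfra was allowed with Dcn), which left 2035 and 5503 cells in no class. UMIs were summed for each class and library, and the 20 sums were tested with edgeR 4.0.16 (quasi-likelihood, TMM, filterByExpr, library as block, Benjamini-Hochberg adjustment over 11032 genes) in R 4.3.3. The pooled mice of a library are shared by all its classes, so p-values rest on the spread between these 2 libraries only. That spread was shared across genes and sums (infinite prior degrees of freedom, common biological coefficient of variation 0.119). The p-values therefore do not measure the spread of a single gene or class between the libraries. Members described by rule were the 5 highest of each class with at least 20 UMIs there, type IV genes, members highest in a glial or neuronal class with at least 20 UMIs, and members past 2-fold between libraries. Others are named where they were called. Collagen members and gene lists were chosen with earlier results of these data known. Alternatives changed the marker minimum, the cell filters, the normalization (also DESeq2 1.42.0), the classes (Leiden clusters from scanpy 1.11.5) and depth. The scripts were tested on simulated data.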

Additional observations from a re-analysis of the deposited data

Results flagged for a closer look

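Cells that passed the filters but fell in no class were outside the comparisons, and they also carried collagen transcripts. The 41 members summed to 1039.28 CPM in the 2035 such cells of the untreated library and to 873.539 CPM in the 5503 such cells of the 4OH-tamoxifen library, above the C1qa class (215 and 201 CPM). Cells with at least 2 UMIs of Dcn and a UMI of a class marker other than Pdgfra were left out of the Dcn class, and their members summed to 15441.9 CPM in 25 untreated cells and to 12749 CPM in 40 cells after 4OH-tamoxifen. These levels lay below the 21097 and 25045 CPM of the Dcn class and above every other class.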

How the results depend on the processing

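No paired analysis was possible because each condition has 1 library, both numbered 1, and the library is already a block in the fit. Of 641 values under alternatives, 494 stayed within their limits, 143 moved and 4 reversed, and for those given here the cause was not tested. Tests could not be refitted without a library, since no residual degrees of freedom remain. Chat had no cells with at least 3 marker UMIs and Nmb no cluster. Dcn and Kcnj8 cells had the highest and second highest summed level in every alternative, and Flt1 cells the next except thinned and in the untreated library alone, where Chat cells lay above them. Members highest in Dcn cells numbered 22 to 25 against 23, and 19 to 24 with either library left out.

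Summed levels (CPM, mean of both libraries) with at least 1 UMI of the marker were 16595 Dcn, 688 Aqp4, 541 Pdgfra, 551 Mog, 293 C1qa, 822 Nmb and 398 Slc32a1. With at least 3 UMIs they were 455 Pdgfra, 183 C1qa and 480.4 Nmb, and with up to 1 UMI of other markers 17155 Dcn, 845 Nmb and 378 Slc32a1. With at least 1200 genes they were 2616 Kcnj8, 657 Aqp4, 521 Pdgfra and 227 C1qa, and with at most 10% mitochondrial UMIs 722 Aqp4, 806 Nmb and 304 Slc32a1. With clusters they were 534 Aqp4, 731 Pdgfra, 391 Mog, 171 C1qa and 417 Slc32a1. With the C1qa level subtracted they were 436 Aqp4, 364 Pdgfra, 339 Mog, 450.2 Nmb and 249 Slc32a1. Thinned, Mog had 499, as a mean of cells 508, and without doublet removal C1qa had 219 and Nmb 610.2. With either library left out the levels ranged over 21097 to 25045 Dcn, 3263 to 3974 Kcnj8, 1427 to 1825 Flt1, 563 to 620.4 Aqp4, 479 to 509.6 Pdgfra, 425 to 479.6 Mog, 201 to 215 C1qa, 678 to 2025 Chat, 537 to 593 Nmb and 324 to 336 Slc32a1.

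Members called higher at 10% mitochondrial UMIs were 6 in Kcnj8 and 3 in Slc32a1. Thinned, they were 5 in Kcnj8, 6 in Aqp4, 3 in Chat, 2 in Nmb and 1 in Slc32a1. In Mog they were 5 with up to 1 UMI of other markers, with clusters and with no filter on counts, in Chat 15 with clusters, and in Slc32a1 3 with DESeq2. Dcn over Kcnj8 gave 9 at 1200 genes and 9 thinned, and Dcn under Kcnj8 1 with 1 UMI. Kcnj8 over Flt1 gave 2 thinned, 2 with 3 UMIs, 8 with up to 1 other UMI and 12 with clusters. Pdgfra over Mog gave 2 with 1 UMI and 9 with clusters, and under Mog 1 with 1 UMI, at 10% mitochondrial UMIs, with library sizes and with DESeq2. Chat over Slc32a1 gave 1 thinned, 9 with 1 UMI, 10 with up to 1 other UMI, 12 with clusters and 2 at 10% mitochondrial UMIs, and under Slc32a1 0 thinned, with library sizes and with DESeq2, 3 with 1 UMI, 2 with up to 1 other UMI and 3 with clusters. Col5a3 in Pdgfra cells turned to -0.32 (log2) with clusters and Col27a1 in Mog cells to 0.30 thinned.

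The ratio of untreated over 4OH-tamoxifen levels turned from 0.842 to 1.42 (1 UMI) and 1.38 (up to 1 other UMI) in Dcn, from 1.10 to 0.969 (1200 genes) in Aqp4 and from 1.13 to 0.979 (clusters) in Mog cells. It moved to 0.778 at 1200 genes, 0.960 thinned and 0.923 as a mean of cells in Dcn, to 4.97 at 1200 genes and 1.79 thinned in Kcnj8, to 0.884 with clusters in Flt1, to 1.36 thinned in C1qa and to 1.72 with clusters in Chat. In Nmb it went from 1.10, whose interval held 1, to the other side of 1, at 0.626 (up to 1 other UMI) and 0.735 (3 UMIs), which is not counted among the 4. Members past 2-fold between libraries numbered 0 to 9 in a class over all alternatives. They were 3 in Dcn and Nmb, 2 in Aqp4, Pdgfra, Mog, C1qa and Chat and 1 in Slc32a1 with up to 1 other UMI. With clusters they were 3 in Dcn, 2 in Kcnj8 and Mog, 0 in Flt1, 4 in Pdgfra, 9 in Chat and 6 in Slc32a1. At 1.5-fold they were 3 in Dcn, 2 in Kcnj8, C1qa and Slc32a1 and 4 in Aqp4 and Mog, and with at least 50 UMIs 0 in Kcnj8, Flt1 and C1qa. The remaining settings gave 0 to 3.

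The median number of members in a Dcn cell was 10.8 with 1 UMI, 10.5 with 3 UMIs and at 1200 genes, 11.5 without doublet removal, at 10% mitochondrial UMIs and with clusters, and 13 at its own depth. It was 1.5 at own depth in Mog, Nmb and Slc32a1 cells, 1.25 in Nmb cells at 10% mitochondrial UMIs, and 0.5 in Slc32a1 cells with 1 UMI, up to 1 other UMI, 10% mitochondrial UMIs or clusters. With either library left out it was 11 in Dcn, 2 to 4 in Kcnj8, 2 in Flt1, 1 in Aqp4, Pdgfra and Mog, 0 in C1qa and Slc32a1, 1 to 4 in Chat and 0 to 1 in Nmb. The Chat class held 3 and 10 cells, Nmb 14 and 36, Kcnj8 24 and 17 and Dcn 23 and 14, which limits the depth of their sums.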
